A study of Mus musculus with 12 samples.

Results

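The genes described here are the Gadd45 family (Gadd45a, Gadd45b and Gadd45g) and 5 genes of the stress-responsive transcription factor network (Ddit3, Trib3, Atf3, Atf4 and Chac1) in mouse epiblast stem cells (EpiSCs), pluripotent cells of the post-implantation epiblast type. Every probe set that the platform annotation pairs with only 1 of these symbols was taken, which gave 14 probe sets for the 8 genes, of 34945 probe sets for 18193 genes with a single symbol. Transcripts were measured on 12 Affymetrix mouse 430 2.0 arrays from 4 groups of 3 biological replicates each. The labels number the groups without saying what the numbers stand for, and they were read here as 4 separate lines, a reading on which every comparison between lines and the block by line depend. The lines were haploid EpiSC-2 and haploid EpiSC-1, labelled strain 129Sv, and diploid EpiSC-2 and diploid EpiSC-1, labelled strain B6D2F1. All cells grew with Activin A and bFGF in N2B27, and none was given a stress treatment per the labels. Haploid cells carry a single chromosome set. Each ploidy was represented by 2 lines and each strain by the same 2 lines, so ploidy and strain cannot be told apart, and neither could be told apart from a difference between the derivations of the lines. Nothing in the labels says whether replicates came from separate derivations, and p values between lines therefore measure the spread between replicate arrays of a line.

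Gadd45 proteins are small acidic proteins without enzyme activity that bind the kinase MEKK4, the replication clamp PCNA, the cell cycle inhibitor p21 and factors of DNA repair and DNA demethylation. They are induced by DNA damage and other stresses and during differentiation, each member with its own set of inducers. In the integrated stress response, kinases that sense amino acid shortage, unfolded proteins, heme lack or double-stranded RNA phosphorylate the initiation factor eIF2, which lowers general translation and favours translation of the Atf4 transcript. ATF4 then activates genes of amino acid supply and further regulators, among them Atf3, Ddit3 (which encodes CHOP), Trib3 (a pseudokinase that restrains ATF4 and CHOP) and Chac1 (an enzyme that degrades glutathione). Because Atf4 is controlled largely at translation, its transcript level and its protein level need not move together, and only transcripts were measured here.

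The 250 bases before the transcription start of each of the 8 genes were searched on both strands for 3 motifs, since several of the genes are known as ATF-type bZIP factors or as their targets. Sequences were those of RefSeq, build GRCm38.p6, and all 8 genes were matched by symbol. The C/EBP-ATF response element, the composite site that ATF4 binds with C/EBP partners, was searched as TGATGNAAN. It was found in 3 of the 8 promoters, against 3.44% of the 32851 promoters of 27025 genes in the table. The full cyclic AMP response element TGACGTCA was found in 0 of 8, against 1.55% of promoters, and the AP-1 site TGANTCA in 1 of 8 (Ddit3, 242 to 236 bases before the start), against 6.75%. No overlap arose between these matches. The 3 promoters that hold the composite site are shown because they belong to a regulator of each kind, a Gadd45 gene, a transcription factor and an effector enzyme. Each runs 5′ to 3′ on the gene's own strand, with the match in capitals. The match lies on the opposite strand in all 3, so the capitals are the reverse complement of the motif.
Gadd45g, chr13:51846425-51846674, plus strand: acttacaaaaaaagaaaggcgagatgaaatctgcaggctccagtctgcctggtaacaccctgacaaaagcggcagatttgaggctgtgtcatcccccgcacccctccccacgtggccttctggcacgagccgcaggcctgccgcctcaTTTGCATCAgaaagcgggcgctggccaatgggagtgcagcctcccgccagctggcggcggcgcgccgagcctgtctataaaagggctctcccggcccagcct
Atf3, chr1:191183334-191183583, minus strand: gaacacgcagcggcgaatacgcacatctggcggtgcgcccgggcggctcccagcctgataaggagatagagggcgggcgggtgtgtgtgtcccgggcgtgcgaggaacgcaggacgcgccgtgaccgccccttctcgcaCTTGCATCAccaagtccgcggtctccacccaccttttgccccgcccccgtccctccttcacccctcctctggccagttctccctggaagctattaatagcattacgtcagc
Chac1, chr2:119350992-119351241, plus strand: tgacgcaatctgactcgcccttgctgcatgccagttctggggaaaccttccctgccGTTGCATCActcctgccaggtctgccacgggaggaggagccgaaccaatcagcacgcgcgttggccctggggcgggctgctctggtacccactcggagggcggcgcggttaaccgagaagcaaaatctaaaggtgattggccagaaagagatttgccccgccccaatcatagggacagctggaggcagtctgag
The match ended 94 bases before the start in Gadd45g, 103 bases before it in Atf3 and 186 bases before it in Chac1. A match describes these letters only, and binding was not measured in these cells. Sites outside the 250 bases or with other letters would be missed, so a promoter without a match may still hold a site.

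**Figure D1:**
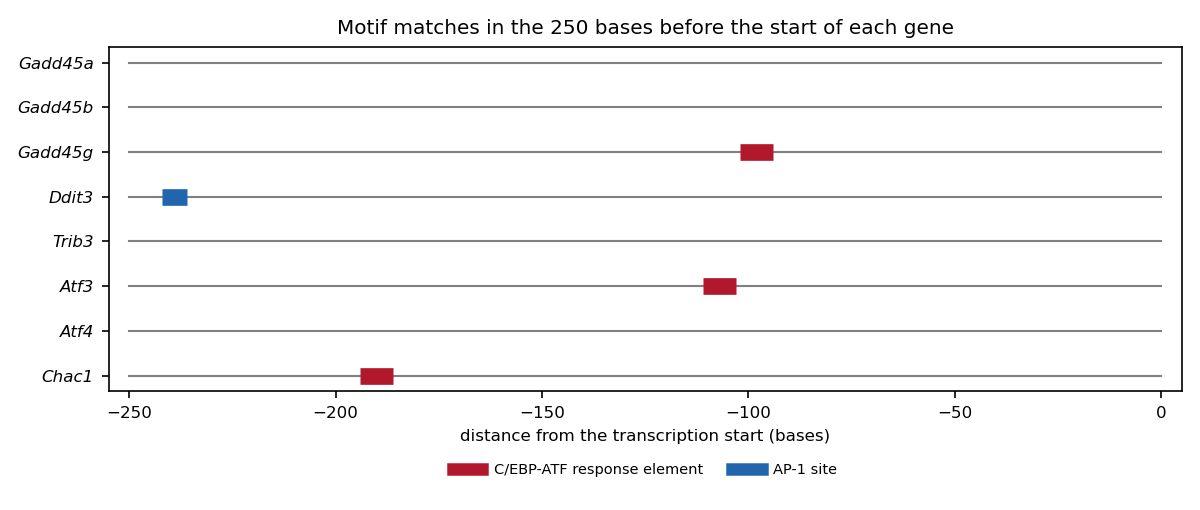
Positions of motif matches in the 250 bases before the transcription start of the 8 genes, 1 row per gene, with distance from the start in bases on the horizontal axis. The composite C/EBP-ATF match lies 102 to 94 bases before the start in Gadd45g, 111 to 103 in Atf3 and 194 to 186 in Chac1, and the AP-1 match lies 242 to 236 bases before the start in Ddit3.

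Values are MAS5 signal intensities, on a linear scale unless a log2 difference is named. Array medians lay between 63.6 and 76.5, and the arrays of each line had pairwise correlations of 0.987 to 0.990 across the 19837 probe sets that passed the signal filter of 62.6. Of the 14 probe sets, 13 passed that filter. The other one, 1439258_at of Atf4, lay between 2.02 and 26.4 on all arrays and was not tested. The epiblast label was checked on 9 markers, and the mean of each lay above the filter in every line, with summed signals of 39802 to 41848 in haploid EpiSC-2, 27339 to 27627 in haploid EpiSC-1, 50667 to 51884 in diploid EpiSC-2 and 64374 to 68478 in diploid EpiSC-1. The markers Otx2 and Fgf5 were low in haploid EpiSC-1, at 74.0 and 86.9. Sox2 went the other way, at 4537 in haploid EpiSC-1, 3383 in haploid EpiSC-2, 1175 in diploid EpiSC-2 and 1005 in diploid EpiSC-1. Markers of fibroblast feeders, of which 15 of 16 were on the array, summed to 30249 to 30920 in haploid EpiSC-2, 27697 to 28211 in haploid EpiSC-1, 2376 to 2517 in diploid EpiSC-2 and 1257 to 1426 in diploid EpiSC-1. Their Col3a1 signal averaged 7309 and 8147 in haploid EpiSC-2 and haploid EpiSC-1, and 130 and 51.8 in diploid EpiSC-2 and diploid EpiSC-1. In such bulk samples a higher share of cells of a type and more RNA per cell cannot be told apart. Fibroblasts can express stress genes, and the part of the feeder markers in the differences between lines below was not tested.

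Gadd45g, the Gadd45 gene associated with differentiation and with growth arrest, separated the haploid from the diploid lines most clearly. Its single probe set (1453851_a_at, Entrez 23882, chromosome 13) had signals of 476, 546 and 563 in haploid EpiSC-2 and 471, 575 and 519.8 in haploid EpiSC-1. In diploid EpiSC-2 it was at 128, 97.5 and 81.2, and in diploid EpiSC-1 at 48.0, 50.6 and 43.3. All 6 haploid arrays lay above all 6 diploid arrays, and the arrays of diploid EpiSC-1 lay under the signal filter, where a fold is uncertain in size. On the log2 scale the haploid minus diploid difference was 2.93 ± 0.40 (SE, 2 lines of 3 arrays each, limma with lines as a random block, adjusted p = 1.30e-04). Over the 24 alternatives it was called each time, with differences of 2.38 to 3.47, and the highest adjusted p was 0.0242, when each line counted as 1 unit. The haploid lines themselves did not differ beyond their spread, at 528 ± 46.0 in haploid EpiSC-2 and 522 ± 52.1 in haploid EpiSC-1 (SD, n = 3 each; log2 difference 0.02, 95% interval -0.33 to 0.37).

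Gadd45a, a damage-inducible p53 target, differed between all 4 lines. Its probe set (1449519_at, Entrez 13197, chromosome 6) had signals of 879, 928 and 898 in haploid EpiSC-2 and 2997, 2915 and 2916 in haploid EpiSC-1. Signals of 983, 1129.7 and 1045 were found in diploid EpiSC-2, and 439, 426 and 431 in diploid EpiSC-1. The highest line was haploid EpiSC-1 and the lowest diploid EpiSC-1, 6.82 times apart in mean signal, while haploid EpiSC-2 lay under diploid EpiSC-2. All neighbours in this order differed beyond their spread, the closest being haploid EpiSC-2 against diploid EpiSC-2 at -0.22 ± 0.06 (log2, SE, limma adjusted p = 0.00435). Between the ploidies the difference was 1.27 ± 0.40 (limma adjusted p = 0.0401) with overlapping arrays. That call held in 11 of 25 alternatives. It was lost without haploid EpiSC-1 (0.42, adjusted p = 0.541), without diploid EpiSC-1 (0.63, adjusted p = 0.348), when each line counted as 1 unit (adjusted p = 0.327), with quantile normalization (adjusted p = 0.0512), with a stricter signal filter (adjusted p = 0.0584), with replicate numbers as a block, and without any 1 of 8 single arrays.

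Gadd45b, the member induced by NF-kappaB and TGF-beta signalling, had its highest level in diploid EpiSC-2 on all 3 of its probe sets (Entrez 17873, chromosome 10). On the brightest, 1450971_at, signals were 1002, 1039.6 and 1233 in haploid EpiSC-2, 1663, 1406 and 1479 in haploid EpiSC-1, 2009, 2038 and 2057 in diploid EpiSC-2, and 945, 1036 and 904 in diploid EpiSC-1. On 1449773_s_at they were 766, 798 and 680.0 in haploid EpiSC-2, 768, 589 and 643 in haploid EpiSC-1, 1711, 1643 and 1727 in diploid EpiSC-2, and 619, 567 and 512 in diploid EpiSC-1. The third, 1420197_at, was dim, at 53.6 to 145 over all arrays. The probe sets disagreed on haploid EpiSC-1. It stood second on 1450971_at, clearly above haploid EpiSC-2, but its arrays overlapped those of haploid EpiSC-2 on 1449773_s_at, whose suffix marks possible sequence shared with other transcripts. Between the ploidies no Gadd45b probe set passed the test, with log2 differences of -0.12, -0.47 and -0.42.

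**Figure D2:**
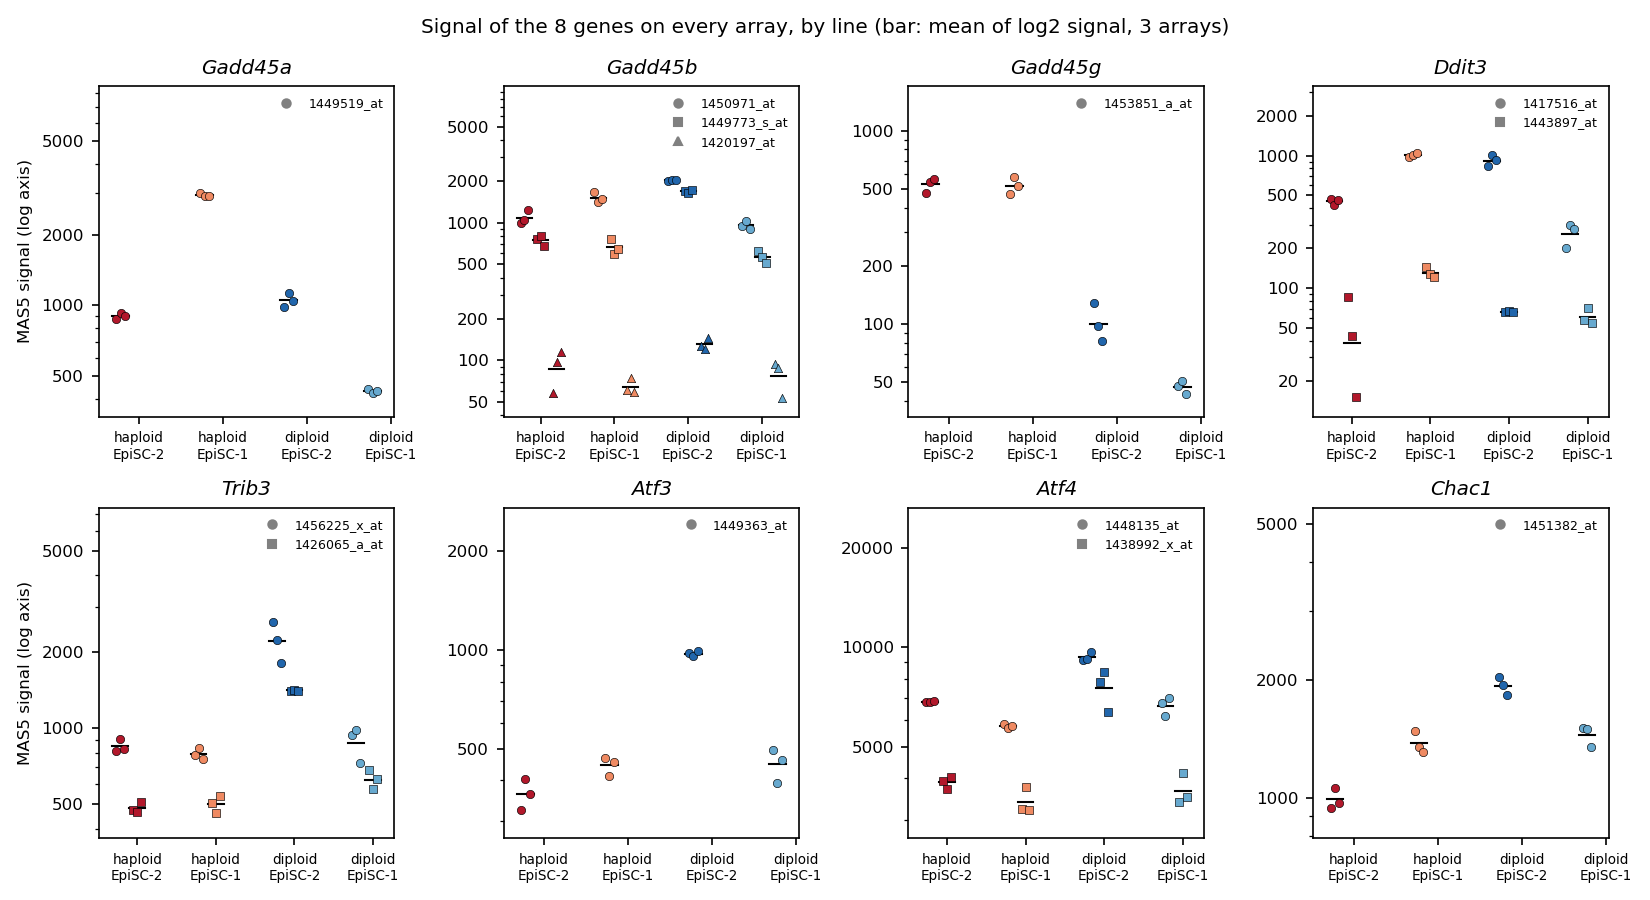
Signal (log axis) of the 13 tested probe sets on each of the 12 arrays, 1 panel per gene, with lines on the horizontal axis, points for arrays, point shapes for probe sets and bars for the mean of log2 signal. Gadd45g is at 471 to 575 on the haploid arrays and 43.3 to 128 on the diploid arrays, Gadd45a is highest in haploid EpiSC-1 at 2915 to 2997, and Gadd45b, Trib3, Atf3, Atf4 and Chac1 are highest in diploid EpiSC-2.

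Atf4, the central factor of the integrated stress response, had the narrowest span of line means among the lead probe sets, 0.70 on the log2 scale. Its lead probe set (1448135_at, Entrez 11911, chromosome 15) gave 6804, 6818 and 6877 in haploid EpiSC-2, 5847, 5692 and 5772 in haploid EpiSC-1, 9174, 9231 and 9665 in diploid EpiSC-2, and 6778, 6207 and 7015 in diploid EpiSC-1. Diploid EpiSC-2 stood above the 3 other lines, haploid EpiSC-2 and diploid EpiSC-1 did not differ beyond their spread (log2 difference 0.04, limma adjusted p = 0.493), and haploid EpiSC-1 was lowest. Probe set 1438992_x_at, whose suffix marks possible cross-hybridisation, was at 3931, 3729 and 4041 in haploid EpiSC-2, 3221, 3778 and 3200.5 in haploid EpiSC-1, 7855, 8437 and 6381 in diploid EpiSC-2, and 3388, 4143 and 3506 in diploid EpiSC-1. There too diploid EpiSC-2 did not overlap with any other line.

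Atf3, a bZIP repressor induced by ATF4 and by many other stress signals, had signals of 324, 403 and 364 in haploid EpiSC-2 and 468, 413 and 455 in haploid EpiSC-1 (1449363_at, Entrez 11910, chromosome 1). Diploid EpiSC-2 gave 976, 957 and 989 and diploid EpiSC-1 gave 496, 393 and 461. Diploid EpiSC-2 stood alone at the top, and haploid EpiSC-1 and diploid EpiSC-1 did not differ beyond their spread (log2 difference -0.01, 95% interval -0.23 to 0.20).

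Ddit3 encodes CHOP, a factor that promotes cell death under lasting stress. Its lead probe set (1417516_at, Entrez 13198, chromosome 10) gave 473, 426 and 465 in haploid EpiSC-2, 971, 1009.7 and 1043 in haploid EpiSC-1, 837, 1005 and 920.2 in diploid EpiSC-2, and 200.1, 301 and 279.7 in diploid EpiSC-1. Haploid EpiSC-1 and diploid EpiSC-2 shared the highest level (log2 difference 0.13, 95% interval -0.13 to 0.40, limma adjusted p = 0.356), haploid EpiSC-2 came next and diploid EpiSC-1 was lowest. The dim probe set 1443897_at gave 85.3, 43.2 and 15.2 in haploid EpiSC-2, 144, 127 and 121 in haploid EpiSC-1, 66.0, 66.9 and 66.2 in diploid EpiSC-2, and 57.2, 70.5 and 54.3 in diploid EpiSC-1. On it haploid EpiSC-1 was highest and diploid EpiSC-2 and diploid EpiSC-1 overlapped. This probe set passed the signal filter only through haploid EpiSC-1, since its log2 mean over the 3 other lines was 5.74, so its differences from that line are given as values without a test.

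Trib3 and Chac1, which act downstream of ATF4 and CHOP, were both highest in diploid EpiSC-2. Trib3 (Entrez 228775, chromosome 2) had signals on 1426065_a_at of 473, 467 and 511 in haploid EpiSC-2, 505, 461 and 538 in haploid EpiSC-1, 1406, 1413 and 1404 in diploid EpiSC-2, and 680.2, 574 and 627 in diploid EpiSC-1. On the brighter 1456225_x_at they were 810.4, 907 and 829.6 in haploid EpiSC-2, 782, 835 and 756 in haploid EpiSC-1, 2614, 2234 and 1811 in diploid EpiSC-2, and 937, 984 and 728 in diploid EpiSC-1. The haploid lines overlapped each other on both probe sets, and they lay under every diploid array only on 1426065_a_at. Chac1 (1451382_at, Entrez 69065, chromosome 2) had signals of 945, 1064 and 974 in haploid EpiSC-2, 1486, 1350.2 and 1315 in haploid EpiSC-1, 2037, 1948 and 1831 in diploid EpiSC-2, and 1510.1, 1498 and 1347 in diploid EpiSC-1. Chac1 was lowest in haploid EpiSC-2, and haploid EpiSC-1 did not differ from diploid EpiSC-1 beyond the spread (log2 difference -0.07, 95% interval -0.22 to 0.08).

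The design's main comparison asks how haploid EpiSCs differ from diploid EpiSCs. Of the 13 tested probe sets, 2 were higher (Gadd45a and Gadd45g) and 1 was lower (Trib3 on 1426065_a_at) in haploid cells. Over all 19837 tested probe sets 15.9% were called, 9.37% higher and 6.54% lower, so the count of 3 is not far from the background. With arrays centred on their medians, which moved the median of all differences to -0.09, against 0.03 without centring, the share of calls that were higher was 45.2% in place of 58.9%. Trib3 fell by 0.93 ± 0.28 on the log2 scale on 1426065_a_at (limma adjusted p = 0.0307). That call held in 18 of 23 alternatives. It was lost without diploid EpiSC-2 (-0.35, adjusted p = 0.289), without haploid EpiSC-2 (-0.91, adjusted p = 0.0823), without haploid EpiSC-1 (-0.96, adjusted p = 0.1001), with a stricter signal filter (adjusted p = 0.0657) and when each line counted as 1 unit (adjusted p = 0.267). Its other probe set was at -0.76 (adjusted p = 0.179). Chac1 was at -0.52 (adjusted p = 0.0915, 95% interval -0.94 to -0.10), Atf3 at -0.72 (adjusted p = 0.129), Atf4 at -0.33 and -0.53 (adjusted p = 0.142 and 0.247) and Ddit3 at 0.48 on its lead probe set (adjusted p = 0.575). Without diploid EpiSC-1, 9 of the 13 probe sets were called. In that fit Atf3 was at -1.28 (adjusted p = 0.00134) and Chac1 at -0.73 (adjusted p = 0.0200). Without diploid EpiSC-2, 3 were called, and Ddit3 on 1417516_at was among them at 1.40 (adjusted p = 0.0264). There Atf3 was at -0.16 (adjusted p = 0.745), Chac1 at -0.31 (adjusted p = 0.341) and Gadd45b at 0.42 and 0.32 on its brighter probe sets, with the sign turned. Beside this comparison, 10 of 12 tested feeder markers were higher in haploid cells and 0 were lower. Of the 15 on the array, 11 had means under the signal filter in diploid EpiSC-1, 7 in diploid EpiSC-2 and 1 in each haploid line. Markers such as Postn, at 40.4 in diploid EpiSC-2 and 34.6 in diploid EpiSC-1, passed the filter only through the haploid lines. This count is therefore not read as a test. The ratio of 3′ to 5′ actin control signal was 1.39 to 1.42 in haploid EpiSC-2, 1.34 to 1.38 in haploid EpiSC-1, 1.57 to 1.68 in diploid EpiSC-2 and 1.46 to 1.53 in diploid EpiSC-1. Of 9 tested epiblast markers, 1 was higher and 4 were lower in haploid cells. Beside both marker counts, 10.7% of all tested genes were higher and 8.35% lower. The part of the markers or of the ratio in the members' differences was not tested.

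Every called probe set of these genes differed in the same direction between the diploid lines. All 8 lead probe sets, and 12 of the 13 probe sets, were higher in diploid EpiSC-2 than in diploid EpiSC-1, where 22.4% of all tested probe sets were higher and 53.3% differed in either direction. At least 2-fold increases were found for 9 of the 13, against 3.65% of all tested probe sets. Some genes count with more than 1 probe set among the 13. The members were also chosen with earlier results of these data known, so these shares are given as a description. The median difference was 1.09 on the log2 scale, against -0.06 over all tested probe sets. Ddit3 showed the widest difference, with 921 ± 83.6 in diploid EpiSC-2 and 260.2 ± 53.1 in diploid EpiSC-1 (SD, n = 3 each), a log2 difference of 1.84 ± 0.12 (SE, limma adjusted p = 1.98e-08). Gadd45b followed at 1.58 ± 0.10 on 1449773_s_at and 1.08 ± 0.08 on 1450971_at. Trib3 was at 1.33 ± 0.12 and 1.17 ± 0.08, Gadd45a at 1.28 ± 0.06, Atf3 at 1.12 ± 0.10 and Gadd45g at 1.09 ± 0.16. Atf4 rose by 0.49 ± 0.04 on its lead probe set and by 1.03 ± 0.10 on 1438992_x_at, while averaging all 3 of its probe sets, the dim one included, gave -0.08 (adjusted p = 0.802). Chac1 rose by 0.42 ± 0.07 (limma adjusted p = 1.43e-04). The exception was the dim Ddit3 probe set 1443897_at, at 0.14 (adjusted p = 0.813, 95% interval -0.80 to 1.08). The call of the dim Gadd45b probe set 1420197_at (0.77, adjusted p = 0.0302) was lost without a signal filter and without any 1 of 3 single arrays. Of 12 tested feeder markers, 8 were higher and 2 lower in diploid EpiSC-2. Of the 15 on the array, however, 11 had means under the signal filter in diploid EpiSC-1 and 7 in diploid EpiSC-2. Differences of such markers lie near the floor and are uncertain in size. The Gapdh 3′ to 5′ ratio was 0.913 to 0.938 in diploid EpiSC-2 and 0.821 to 0.850 in diploid EpiSC-1. Of 6 tested endoderm markers, 0 were higher and 5 were lower, and of 3 tested neural markers 2 were higher. Of 9 tested epiblast markers, 2 were higher and 6 were lower. Beside these marker counts, 26.1% of all tested genes were higher and 29.1% lower. The part of the markers or of the Gapdh ratio in the members' differences was not tested.

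For the haploid lines the dim Ddit3 probe set was left out of the counts. It passed the signal filter only through haploid EpiSC-1, and the choice was made after its values were seen. Of the 12 other probe sets, 1 was higher and 5 were lower in haploid EpiSC-2 relative to haploid EpiSC-1. Of all tested probe sets 49.5% were called, 22.8% higher and 26.7% lower. At least 2-fold lower were 2 of the 12, against 4.05% of all tested probe sets. With centring, which moved the median of all differences to 0.12, against -0.04 without it, the share of calls that were higher was 66.9% in place of 46.0%. Gadd45a was lower by the widest well-measured margin, with 901 ± 24.6 in haploid EpiSC-2 and 2943 ± 46.9 in haploid EpiSC-1 (SD, n = 3 each), a log2 difference of -1.71 ± 0.06 (limma adjusted p = 3.40e-11) that lay between -1.75 and -1.55 over the alternatives. Ddit3 was at 455 ± 25.4 in haploid EpiSC-2 and 1008 ± 36.2 in haploid EpiSC-1, a difference of -1.15 ± 0.12 (limma adjusted p = 2.93e-06), and its dim probe set averaged 47.9 in haploid EpiSC-2, under the signal filter, and 131 in haploid EpiSC-1. Chac1 was lower too, at -0.48 ± 0.07 (adjusted p = 4.90e-05). Atf3 was at -0.30 ± 0.10 (adjusted p = 0.0234), a call lost with centring, with quantile normalization and without any 1 of 3 single arrays. Gadd45b fell by 0.48 ± 0.08 on 1450971_at (adjusted p = 2.29e-04) but was at 0.17 and 0.43 on its other probe sets, and averaging all 3 gave 0.04. Atf4 was the gene that was higher, by 0.24 ± 0.04 (adjusted p = 3.36e-04), while averaging all 3 of its probe sets, the dim one included, gave -0.13. Trib3 (0.10 and -0.05) and Gadd45g (0.02) were not called. Endoderm markers differed widely between these lines, with 6 of 6 tested higher in haploid EpiSC-2 and sums of 3852 to 4077 in haploid EpiSC-2 and 459.6 to 551 in haploid EpiSC-1. Of the 7 on the array, 4 had means under the signal filter in haploid EpiSC-1, where the size of a difference is uncertain. Feeder markers differed little, with 1 of 12 higher and 2 lower. Of 9 tested epiblast markers, 6 were higher and 2 were lower. Beside these marker counts, 25.0% of all tested genes were higher and 30.3% lower. The part of these markers was not tested.

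**Figure D3:**
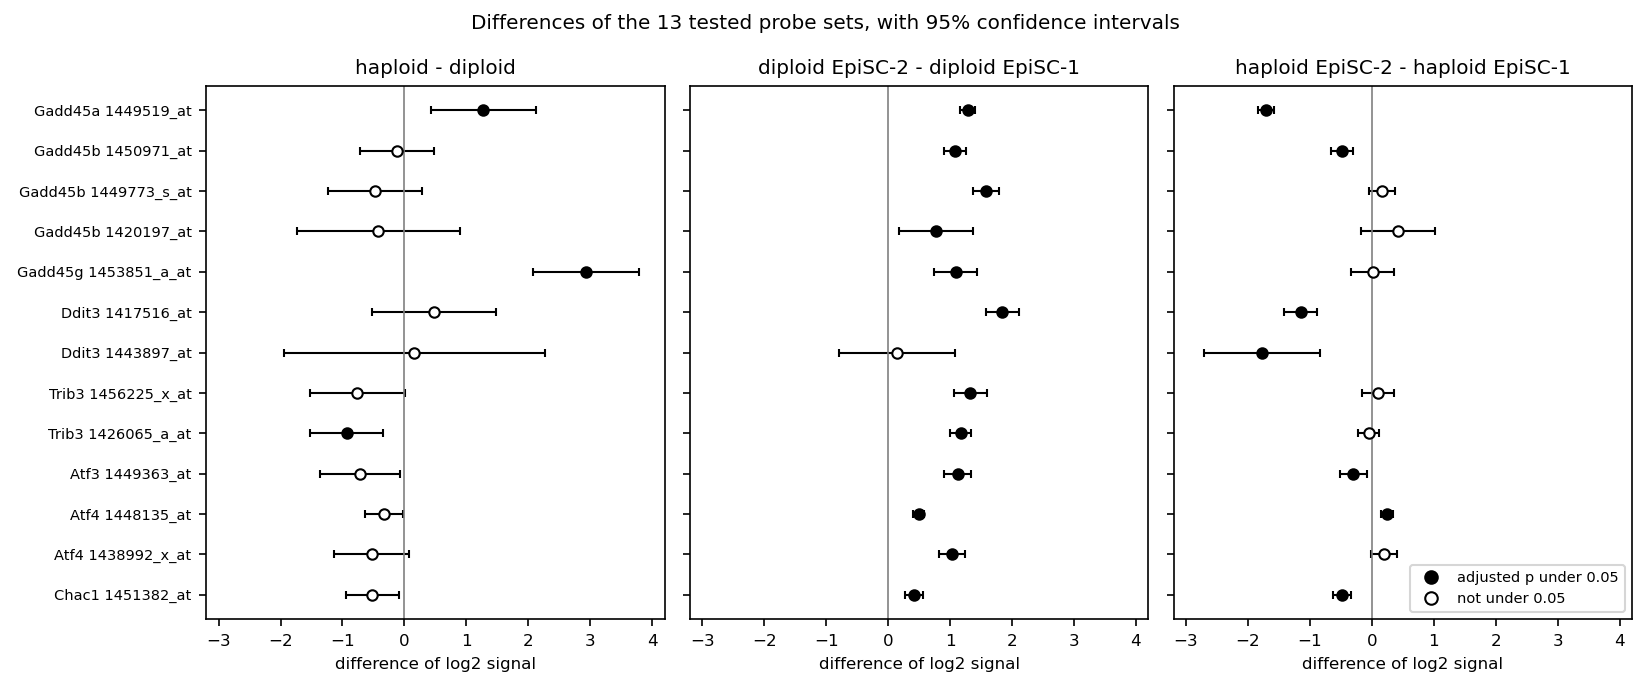
Log2 differences of the 13 tested probe sets in 3 comparisons, with 95% confidence intervals, filled where the adjusted p was under 0.05. Between the diploid lines 12 of 13 are filled and lie above 0, between the haploid lines Gadd45a lies at -1.71 and Ddit3 at -1.15, and between the ploidies Gadd45g lies at 2.93. The dim Ddit3 probe set passed the signal filter only through haploid EpiSC-1. Its filled point between the haploid lines is not read as a test.

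Across the 12 arrays the members fell into different patterns, given as a description because the arrays share 4 lines and 1 scaling. Trib3 correlated with Atf3 at 0.916 and with Atf4 at 0.886 (Pearson, log2 signal of lead probe sets, 12 arrays), and Atf3 with Chac1 at 0.885. Ddit3 correlated with Gadd45b at 0.861 and with Gadd45a at 0.859, but with Atf4 at 0.173. Gadd45g correlated with Gadd45a at 0.731 and with Chac1 at -0.596. The genes most alike to each member over the same arrays were Pcgf5 (0.993) and Slc44a2 (0.992) for Gadd45a, Atxn10 (0.981) and Krt8 (0.970) for Gadd45b, and Ndufb2 (0.995) and Atp6ap2 (0.994) for Gadd45g. For Ddit3 they were Commd3 (0.991) and Pfkfb3 (0.983), for Atf3 Tesc (0.983) and Lrrfip1 (0.981), and for Trib3 Trappc2l (0.972) and Tjp1 (0.968). Likeness was sought only for genes whose line means spanned at least 1 on the log2 scale, which left out Atf4 and Chac1.

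Known binding partners and effectors of the Gadd45 proteins were counted over 11 tested genes, each by its brightest probe set. In haploid against diploid cells 0 were higher and 2 lower, where 10.7% of the 11105 tested genes were higher and 8.35% lower. Cdkn1a, which encodes p21, averaged 260.0 ± 4.49 in haploid EpiSC-2, 361 ± 3.05 in haploid EpiSC-1, 3828 ± 140 in diploid EpiSC-2 and 1349 ± 74.1 in diploid EpiSC-1 (SD, n = 3 each). It fell by 2.89 ± 0.31 on the log2 scale between the ploidies (limma adjusted p = 1.24e-05), while Gadd45g was higher. Gadd45a was higher too, in a call that held in 11 of 25 alternatives. The repair nuclease gene Ercc5 fell by 1.42 ± 0.21 (adjusted p = 2.42e-04). The stress kinase gene Mapk14 (p38 alpha) was at 0.38 (adjusted p = 0.0619) and the base excision repair gene Apex1 at -0.38 (adjusted p = 0.0673). Between the haploid lines 5 of the 11 were higher and 1 lower in haploid EpiSC-2, where 25.0% of genes were higher and 30.3% lower. Apex1 rose by 0.52 and Pcna by 0.28, and Cdkn1a fell by 0.47 on the log2 scale. Between the diploid lines 5 were higher and 4 lower, against 26.1% and 29.1% of all genes, and 3 and 4 with arrays centred. Map3k4 (0.21), Apex1 (0.13) and Mapk8 (0.23) were among the higher, but each had other probe sets called lower. Cdkn1a, named here after its values were seen, was 1.51 higher in diploid EpiSC-2.

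The machinery upstream of ATF4 was counted next. Of 15 tested genes of the eIF2 kinases, their regulators, the eIF2 phosphatase and the exchange factor eIF2B, 1 was higher and 2 were lower in haploid cells, near the shares of 10.7% and 8.35% over all tested genes. When each line counted as 1 unit, 1 was higher and 0 were lower. The eIF2B subunit genes Eif2b1 (log2 difference -0.55, adjusted p = 0.0336) and Eif2b5 (-0.41, adjusted p = 0.0395) were lower, and Eif2b2 was at -0.43 (adjusted p = 0.0716). Impact, an imprinted inhibitor of the kinase GCN2, was 1.96 higher on its brightest probe set but at -0.58 on its other one. In haploid EpiSC-2 against haploid EpiSC-1, 5 were higher and 2 lower, against 25.0% and 30.3% of all genes, and 10 and 2 with arrays centred. Those called included Eif2b3 (0.50), Eif2b1 (0.52) and Eif2ak2, the kinase that senses double-stranded RNA (-0.83). In diploid EpiSC-2 against diploid EpiSC-1, 3 were higher and 5 lower, where 26.1% of genes were higher and 29.1% lower.

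Genes of amino acid supply, many of them known ATF4 targets, differed in both directions. In haploid against diploid cells 1 of 20 was higher and 4 were lower, against 10.7% and 8.35% of all tested genes. With arrays centred or quantile-normalized 0 were higher, and when each line counted as 1 unit 1 of the lower calls was left. The glutamine transporter gene Slc1a5 averaged 135 ± 13.4 in haploid EpiSC-2, 131 ± 8.57 in haploid EpiSC-1, 1103 ± 23.8 in diploid EpiSC-2 and 1524 ± 140 in diploid EpiSC-1, a log2 difference of -3.29 ± 0.24 (limma adjusted p = 2.67e-07). The cationic amino acid transporter gene Slc7a3 was at -1.07, the leucine transporter gene Slc7a5 at -0.74 and the serine synthesis gene Psat1 at -0.44, each called. Between the haploid lines 14 of the 20 were higher and 2 lower in haploid EpiSC-2 (median 0.39, against -0.05 over all tested genes, of which 25.0% were higher and 30.3% lower), with the transporter genes Slc7a1 at 1.25 and Slc7a3 at 0.91 and the serine synthesis gene Phgdh at 0.55. Between the diploid lines 10 were higher and 5 lower in diploid EpiSC-2 (median 0.13), against 26.1% and 29.1% of all genes, and 7 and 5 after quantile normalization (median 0.03). Of these, chosen after their values were seen, Slc7a1 was at 1.91, the cysteine synthesis gene Cth at 1.43 and the asparagine synthetase gene Asns at 0.51. Slc1a4 was at 0.29 between the diploid lines, but its 2 other probe sets were called lower, at -0.56 and -0.54. Aldh18a1 (0.16) had another probe set called lower, and Gpt2 (-0.21) had another called higher.

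Transfer RNA synthetase genes, a further ATF4 target group, were lower in haploid cells in 4 of 12 cases and higher in 0, against 8.35% and 10.7% of all tested genes. Sars (-0.57), Iars (-0.75), Mars1 (-0.46) and Wars (-0.56) were called, though 1 of the 3 other tested Wars probe sets had the opposite sign, and 0 of the 12 were called when each line counted as 1 unit. Of the 12, 8 were higher and 1 lower in haploid EpiSC-2 against haploid EpiSC-1 (median 0.18), where 25.0% of all genes were higher and 30.3% lower, with Iars at 0.99, Mars1 at 0.37 and Tars at 0.29. In diploid EpiSC-2 against diploid EpiSC-1, 8 were higher and 1 lower (median 0.19, and 0.11 with 5 higher after quantile normalization), against 26.1% and 29.1% of all genes. Of the higher genes, Aars (0.31), Eprs (0.21) and Iars (0.16) each had another probe set called lower. Their other probe sets reached -0.175, -0.524 and -0.226, while the other Nars probe set was at 0.38.

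Other stress targets of ATF4 and CHOP, 19 tested genes of autophagy, redox control, growth control and cell death, came next. In diploid EpiSC-2 against diploid EpiSC-1, 11 were higher and 0 lower (median 0.46, against -0.01 over all tested genes, of which 26.1% were higher and 29.1% lower), and 2 were lower with arrays centred. Of those named after their values were seen, the stress-induced chromatin protein gene Nupr1 was at 2.38 against a diploid EpiSC-1 mean under the signal filter, the bZIP gene Atf5 at 1.04, Cebpb at 0.85, the autophagy gene Map1lc3b at 0.77 with 1 of its 2 other probe sets at -0.05, and the translation repressor gene Eif4ebp1 at 0.63. In haploid EpiSC-2 against haploid EpiSC-1, 4 were higher and 9 lower (median -0.30), against 25.0% and 30.3% of all genes. The median was -0.14 with arrays centred, where 6 were higher and 9 lower, and -0.15 after quantile normalization. Those called included the disulfide oxidase gene Ero1a at -1.22, the mTOR inhibitor gene Ddit4 at -1.13 and the tRNA exporter gene Xpot at 0.41. Between the ploidies 3 were higher and 1 lower, against 10.7% and 8.35% of all genes, and 1 and 1 with arrays centred. Nupr1 averaged 443 ± 26.2 in haploid EpiSC-2, 1143 ± 43.9 in haploid EpiSC-1, 249 ± 30.8 in diploid EpiSC-2 and 49.0 ± 14.4 in diploid EpiSC-1, the last under the signal filter, so that the size of its fold is uncertain. Its fitted value was a haploid minus diploid difference of 2.71 ± 0.62 (limma adjusted p = 0.00652). Jdp2 (0.82) and the growth factor gene Vegfa (0.72) were higher too, and the pro-apoptotic gene Bbc3 (-1.15) was lower. When each line counted as 1 unit, 0 of the 19 were called.

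Of 20 tested genes of the chaperone arm of the unfolded protein response, 1 was higher and 1 lower between the ploidies, against 10.7% and 8.35% of all genes. After quantile normalization 3 were higher, and when each line counted as 1 unit 0 were called. The called genes were Sel1l of the degradation pathway at 0.50 with 1 of its 3 other probe sets near 0 on the other side, and Canx, a chaperone of the endoplasmic reticulum, at -0.37. Dnajb9 (0.57, adjusted p = 0.0537) and Edem1 (0.61, adjusted p = 0.0724) were not called. Between the haploid lines 9 were higher and 1 lower in haploid EpiSC-2 (median 0.13), where 25.0% of all genes were higher and 30.3% lower, and 12 and 0 with arrays centred. They included Dnajb11 at 0.52, Sdf2l1 at 0.48 and Manf at 0.40. Between the diploid lines 5 were higher and 2 lower (median 0.04), against 26.1% and 29.1% of all genes, and 6 and 5 after quantile normalization. Xbp1 was at 0.36 there, but 1 of its 3 other probe sets was called lower, at -0.15.

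Other bZIP and immediate early genes were counted over 21 tested genes. In haploid against diploid cells 7 were higher and 0 lower (median 0.31), against 10.7% and 8.35% of all genes, 5 and 0 with arrays centred or quantile-normalized, and 0 when each line counted as 1 unit. Junb rose by 1.61, Fos by 1.43, Cebpd by 1.08 and Jun by 0.77, though the other Cebpd probe set was at -0.11. The haploid lines differed in 13, with 3 higher and 10 lower in haploid EpiSC-2 (median -0.24), against 25.0% and 30.3% of all genes, but 6 higher and 8 lower with arrays centred (median -0.08). Among those called were the survival gene Ier3 at -1.64, Cebpd at -0.75 and the oxidative stress factor gene Nfe2l2 at -0.43. Between the diploid lines 10 were higher and 5 lower in diploid EpiSC-2 (median 0.17), against 26.1% and 29.1% of all genes. Atf2 (-0.21), Creb1 (-1.05) and Nfe2l2 (-0.27) each had another probe set called higher. Named after their values were seen, Fosl2 was at 3.47 against a diploid EpiSC-1 mean of 40.5, under the signal filter, Creb3 at 1.45 and Klf6 at 1.41. Of 7 tested relatives of Trib3 and Chac1 and enzymes of their pathways, 1 was higher and 1 lower between the ploidies, against 10.7% and 8.35% of all genes, and 0 were called when each line counted as 1 unit. These were the pseudokinase gene Trib2 at 1.20 and the glutathione cycle gene Ggct at -0.59. Between the haploid lines 3 were higher and 2 lower, with Ggct at 0.52, Trib2 at -0.63 and Stk40 at 0.35, and between the diploid lines 1 was higher and 2 lower, against 25.0% and 30.3% of all genes for the haploid lines and 26.1% and 29.1% for the diploid lines.

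**Figure D4:**
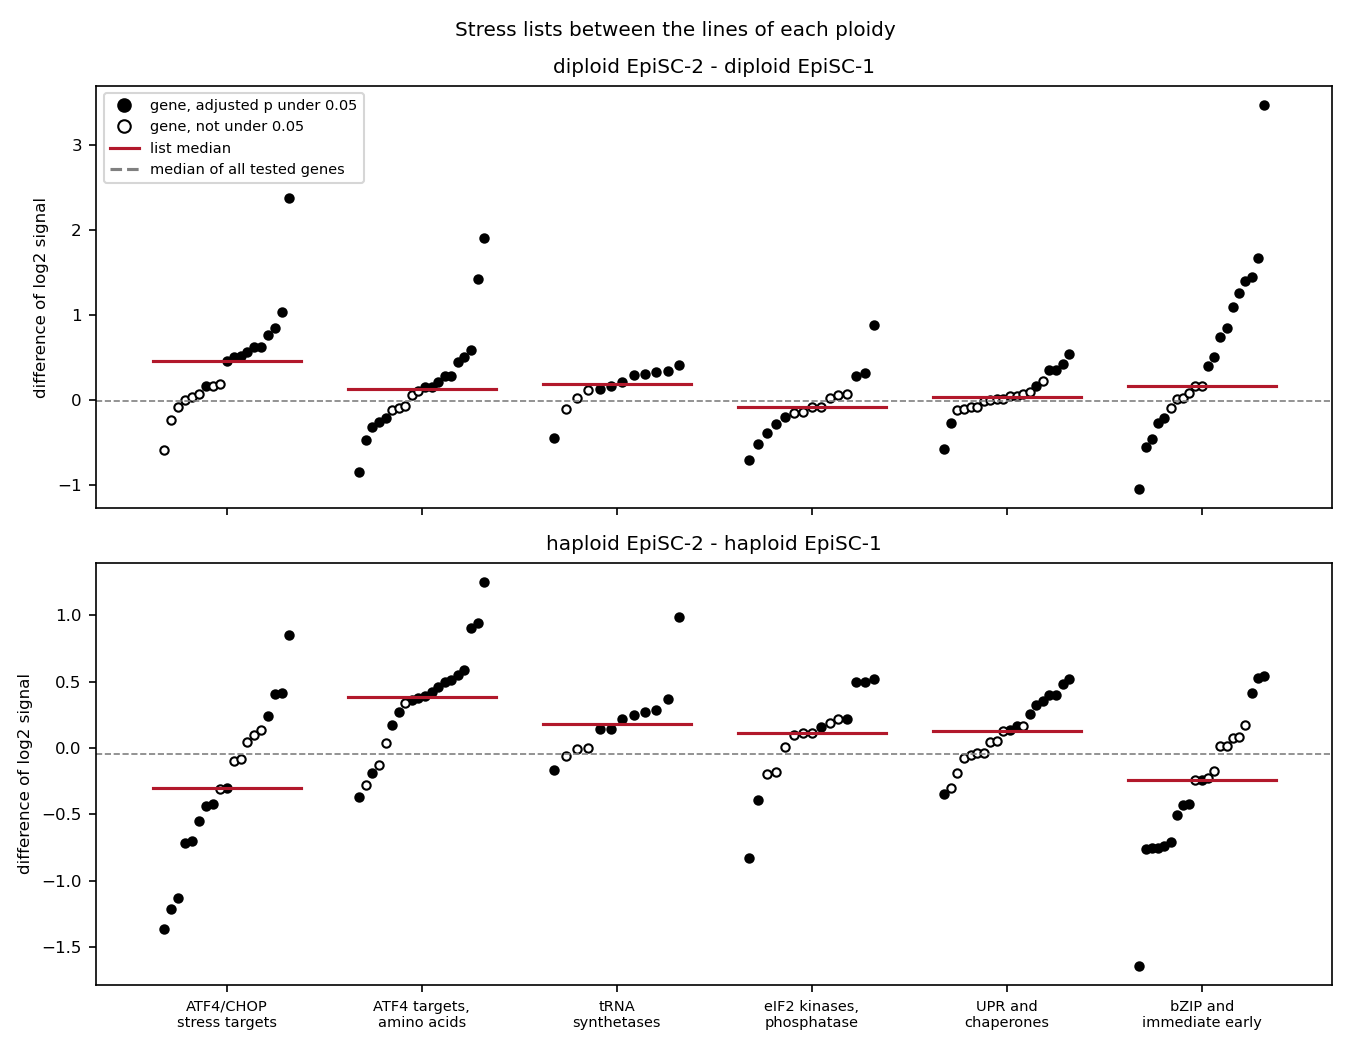
Log2 differences of the brightest probe set of each tested gene in 6 stress-related lists, between the diploid lines (top) and between the haploid lines (bottom), ordered by value within a list, filled where the adjusted p was under 0.05. Red bars are list medians and the dashed line is the median of all tested genes. The ATF4 and CHOP stress targets have a median of 0.46 between the diploid lines and -0.30 between the haploid lines, and the amino acid genes 0.13 and 0.39.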

How the data were processed

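Gene expression was measured with Affymetrix mouse 430 2.0 arrays (per the platform annotation) on total RNA from 12 samples, 3 of each of 4 lines. The authors deposited linear-scale intensity values. The submitters' processing notes name MAS5, whose version is not given in the sources used here. Every array had a trimmed mean of 500.0. Of 45101 probe sets, 64 controls, 932 with several symbols and 9160 with none were left out. Chromosomes came from a GRCm38.p6 table through the Entrez identifier. Log2 signals without a pseudocount were tested for the 19837 probe sets with a mean log2 of at least 5.97, which is the median over the whole table. Precision is limited by the number of arrays and, between the ploidies, by the 2 lines of each.

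The ploidies were set against each other in limma 3.58.1 (R 4.3.3), with the 4 lines as a random block (duplicateCorrelation, statmod 1.5.0, correlation 0.769). Pairs of lines were contrasted within a model holding 1 mean for each of the 4 lines. Both used empirical Bayes moderation with an intensity trend and two-sided tests, and Benjamini-Hochberg adjusted p values under 0.05 were called. The ploidy fit and the contrast of the diploid lines were tried on simulated arrays with known changes added. The signal filter, the list counts and the motif search were not. Gene lists were counted on the brightest tested probe set of each gene. The members and lists were chosen with earlier results of these data known. Named genes were all members, up to 4 genes per list with the lowest p between the ploidies and up to 3 between the haploid lines, the 2 genes most alike to each member, and the cell type markers. Genes named for the difference between the diploid lines fall outside this rule and were chosen after their values were seen. Equal replicate numbers were not used to pair the samples. The correlations of their deviations lay between -0.04 and 0.08 over 18 pairs, which shows no strong shared deviation but cannot exclude pairing. Other scalings, filters, a pseudocount of 16, other units of the fit, and fits without single arrays or lines were tried.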

Additional observations from a re-analysis of the deposited data

How the results depend on the processing

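Of 1794 refits of single member probe sets over all 7 comparisons, 1691 kept direction and side of the threshold, 55 lost and 32 gained a call, 12 uncalled values changed sign, and 4 reversed, all with the mean of all probe sets of a gene. These were Gadd45b (0.0413) and Atf4 (-0.13) between the haploid lines, Atf4 between the diploid lines (-0.0822), and Atf4 in haploid EpiSC-1 against diploid EpiSC-2 (0.0412). The Atf4 mean includes the dim probe set. Between the ploidies 3157 probe sets were called, against 5655 without a signal filter, 1302 with the stricter one (10380 tested), 1913 with the brightest probe set and 1603 with the mean per gene, 601 with line means and 2019 without haploid EpiSC-1. Member calls there were 3, against 0 of 10 with the stricter filter, 1 with line means and 9 without diploid EpiSC-1. Between the haploid lines 9827 probe sets were called, against 6441, 6288 and 4616 with the stricter filter, the brightest probe set and the mean, and member calls were 7, against 4 of 8 genes with the mean. Between the diploid lines these were 10574, against 6864, 6196 and 4675, and 12, against 7 of 8 genes. Fewer features were tested with the stricter filter, the brightest probe set and the mean per gene. What lowered these totals, or those with line means or without a line, was not tested. Without single arrays the calls ranged from 2845 to 2978, 8784 to 9969 and 9503 to 10626 for the ploidies, haploid and diploid lines, and the member calls from 2 to 3, 6 to 8 and 11 to 12. Chac1 was called between the ploidies with centring (adjusted p = 0.0287), without a filter (0.0312) and without haploid EpiSC-1 (0.0300). The 7 member calls between the haploid lines include the probe set that passed the signal filter only through 1 line. Leaving that probe set out, chosen after seeing the data, gave 3, 6 and 12 calls of 12. Line means leave no residual degrees of freedom between single lines, so that alternative was not run there. Dim probe sets (Ddit3 1443897_at, Gadd45b 1420197_at) lie near the signal filter, which limits their differences.

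The labels number replicates 1 to 3 in every line. With the replicate block, 2692, 9882 and 10588 probe sets were called for the ploidies, the haploid and the diploid lines, and 2, 7 and 12 member probe sets. Gadd45a lost its call between the ploidies (1.27, adjusted p = 0.0644). Of 12 arrays, 5 correlated best with their own number, which does not decide whether equal numbers pair the samples.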
